A study of Mus musculus with 8 samples.

Results

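Club cells are the secretory cells of the airway lining that the authors labelled Club among the single cells of mouse lung, and the label was taken as given. It holds 1389 of the 41106 cells in the files (3.38%), 643 from mice that breathed cigarette smoke (CS) and 746 from mice kept in room air (RA). Each mouse gave between 84 and 300 club cells. All 8 mice were C57BL/6 animals of the Sftpc-CreERT2-mTmG strain and all received tamoxifen on 4 days at 8 to 10 weeks of age. The 4 CS mice (C2, C5, D2 and D5) breathed smoke of 3R4F research cigarettes for 6 hours a day on 5 days a week over 10 months, starting 2 weeks after tamoxifen, and the 4 RA mice (F1, F3, M1 and M3) were littermates. In this strain the Sftpc promoter drives a Cre that tamoxifen activates, so that cells using Sftpc switch from the red reporter tdTomato to the green reporter eGFP. Right lungs were taken one day after the last exposure and digested for 45 minutes, and the cell suspension was remixed as 10% CD45+ and 90% CD45- cells before sequencing, so a share of all cells is set partly by that mix.

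Club cells line the small airways and release Scgb1a1 (secretoglobin CC10) together with other secretoglobins, mucins and antimicrobial proteins. They are rich in cytochrome P450 enzymes such as Cyp2f2, which act on inhaled chemicals, and they serve as progenitors that renew themselves and give rise to ciliated and goblet cells. Notch signalling keeps airway cells secretory, and Foxj1 switches on the ciliated program.

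Values are unique molecular identifier (UMI) counts at the 3′ end of transcripts after removal of free RNA, scaled to 10,000 per cell and averaged over the club cells of each mouse, which makes the mouse the replicate. Library totals lay between 31883000 and 55485600 UMIs, and the median per club cell between 27543 and 51739 over mice, against 5229 over all cells. Of all cells, 394 shared a barcode with another library, and 18 club cells did so with a club cell of another library. By label, each group had 2 males and 2 females. Among club cells, both CS mice labelled male (C2 and C5) held Xist at 6.46 and 6.92 per 10,000, and both CS mice labelled female (D2 and D5) held the Y-linked Ddx3y at 0.414 and 0.420, so those labels go against the transcripts. RA labels matched. Either way there are 2 of each sex in a group, and each of the 4 sequencing lanes held 1 CS mouse and 1 RA mouse.

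The label was checked against 10 club cell markers. Scgb1a1 reached 3986 per 10,000 as a mean over mice, with 3440 in goblet cells, 48.5 in AT2 cells, 26.1 in ciliated cells and 13.5 in B cells. Hp (haptoglobin) reached 38.6 in club cells and 25.1 in goblet cells. Cbr2, a carbonyl reductase, reached 66.4 against 59.6 in basal cells, and Cldn10, a tight junction claudin, 2.24 against 1.70 in goblet cells. These 4 of the 10 markers were highest in club cells. Cyp2f2 stood at 59.1 in club, 58.7 in goblet and 68.7 in basal cells. Scgb3a2 was higher in goblet cells, at 246 against 89.6, and so was Lypd2, at 13.5 against 2.07. Aldh1a1, a retinal dehydrogenase, and Ces1d, a carboxylesterase, were higher in ciliated cells, at 22.6 against 15.8 and at 12.9 against 9.57, and Cbr2 reached 50.7 there. Most markers were thus shared with goblet, basal or ciliated cells. Since the authors clustered the cells and named the types from the same expression data, these levels describe the label and carry no test.

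Genes with the largest ratio to the next type, among genes at 3 or more per 10,000, gave a similar picture. The RNA B430010I23Rik reached 4.33 in club cells, a ratio of 3.70 to goblet cells. Kcnk2, a potassium channel, reached 4.58 with a ratio of 1.93, and Hp had a ratio of 1.54. Ptpn13, a tyrosine phosphatase, stood at 5.27 with a ratio of 1.40, and Aox3, an aldehyde oxidase, at 5.11 with a ratio of 1.23 to basal cells. Only these 5 of the 15 highest-ranking genes had a ratio over 1.2.

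**Figure D1:**
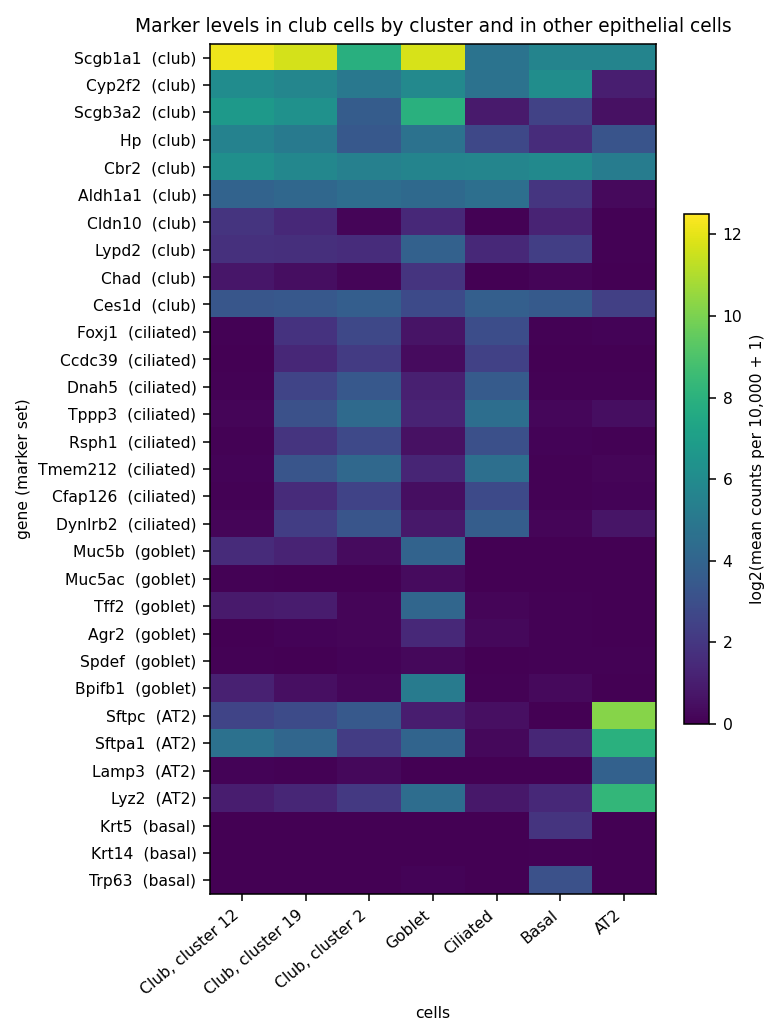
Mean level of club, ciliated and goblet cell markers (colour, log2 of counts per 10,000 plus 1; rows are genes) in club cells of each of the authors' clusters and in other epithelial cells (columns). Scgb1a1 is at 4693 in club cells of cluster 12 and 3270 in those of cluster 19, and the ciliated markers are high in clusters 19 and 2 but not in cluster 12.

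The label joins cells of 3 of the authors' clusters, which differ in ciliated genes. Cluster 12 holds 803 of the club cells (57.8%), cluster 19 holds 552 (39.7%) and cluster 2 holds 34 (2.45%). The summed level of 8 ciliated markers had a mean of 0.619 per 10,000 in cluster 12, 33.8 in cluster 19 and 74.9 in cluster 2, beside 91.9 in cells labelled ciliated. Foxj1, the transcription factor of motile ciliated cells, had a count in 11.6% of cluster 12 cells, 82.2% of cluster 19 cells and 97.1% of cluster 2 cells. Tmem212, another ciliated marker, stood at 0.107, 8.91 and 17.5 in these clusters and at 23.0 in ciliated cells. Scgb1a1 went the other way, from 46.9% of the counts in cluster 12 to 32.7% in cluster 19 and 2.39% in cluster 2. As a group, club cells of cluster 19 thus held secretory and ciliated transcripts, but not in every cell, since 41 of them (7.43%, median depth 1309 UMIs) had no ciliated marker count and 40 held Scgb1a1 under 100 per 10,000. The cluster's median depth was 42624 UMIs against 28501 in cluster 12, and 29036 against 12204 once Scgb1a1 was left out. Cluster 12 also holds 440 cells labelled goblet, and cluster 19 holds 69 goblet and 30 ciliated cells. The authors had labelled multiplets apart, and whether cluster 19 holds cell pairs was not tested.

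**Figure D2:**
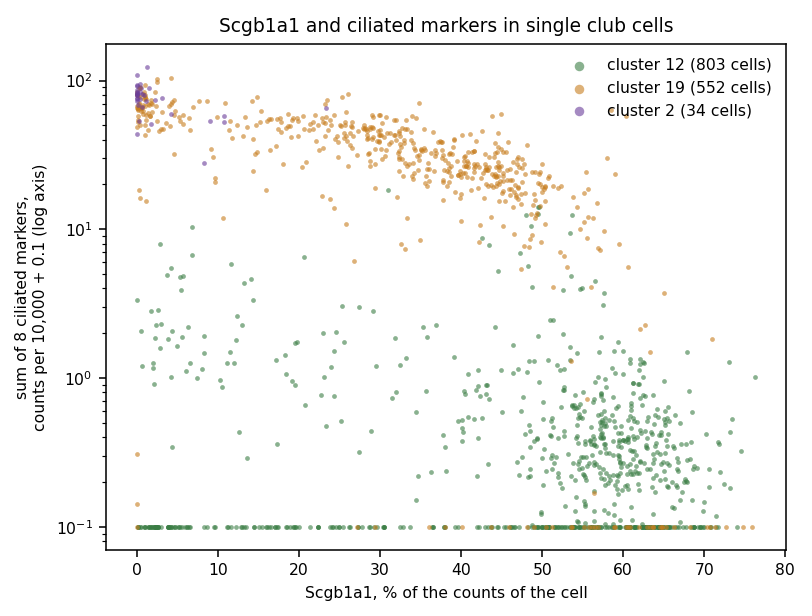
Each point is a club cell, with the percent of its counts from Scgb1a1 on the horizontal axis and its summed level of 8 ciliated markers per 10,000 plus 0.1 on the vertical log axis, coloured by cluster. Cells of cluster 12 lie near the bottom (median sum 0.148), those of cluster 19 in the middle (30.7) and those of cluster 2 at the top left (76.4).

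Smoke was compared first in how many club cells there were. Club cells made up 15.4% ± 3.34 of the epithelial cells with smoke and 17.4% ± 5.64 in room air (SD, n = 4 mice each; exact two-sided permutation p = 0.600, adjusted p = 0.789 over 6 single values). The share ran from 11.9% to 18.5% with smoke and from 9.31% to 22.1% without, so the groups overlapped. With 4 mice against 4 there are 70 assignments and the smallest p is 0.0286. Cluster 19 made up 38.3% ± 3.22 of the club cells with smoke and 40.7% ± 3.72 in room air (exact permutation p = 0.429, adjusted p = 0.789). Goblet cells made up 23.6% ± 4.26 and 27.3% ± 8.34 of club and goblet cells together (exact permutation p = 0.629). Scgb1a1 took 39.5% ± 2.66 of the counts in CS mice and 40.2% ± 3.40 in RA mice (exact permutation p = 0.657). At this spread none of the 4 values differed detectably.

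Gene expression differed in a small number of genes. The secretory genes Scgb3a1, Muc5b and Reg3g, the receptors Erbb4 and Chrm3 and the chaperones Hspa8 and Hspd1 fell in CS mice, and the clock gene Dbp, the cold-inducible Cirbp and the P450 gene Cyp2a5 rose. Of 11736 genes found in at least 10% of the club cells of either group, 25 passed an adjusted p of 0.05 (0.213%), 9 higher (0.0767%) and 16 lower (0.136%) in CS mice, by limma on log2 of the per-mouse mean plus 1 with Benjamini-Hochberg adjustment. Without that threshold for detection no gene of 29082 passed limma, and 1830 had an unadjusted p under 0.05. At an unadjusted p under 0.05, 830 genes were higher (7.07%) and 374 lower (3.19%). The count also moves with the mice and with the scaling. With 1 mouse left out it ran from 1 (without C2) to 21 (without F1), being 7 without C5, 9 without D2, 6 without D5, 13 without F3, 9 without M1 and 7 without M3. Leaving out the 839 club cells (60.4%) with a count of an immune, endothelial or mesenchymal marker, 3 genes passed, 2 of them among the 25. In cells thinned to 2000 UMIs 11 passed, 9 of them among the 25. The summed immune markers ran from 0.104 to 0.243 per 10,000 in club cells of CS mice and from 0.0793 to 0.429 in those of RA mice, and the endothelial, mesenchymal, basal and AT2 sums overlapped between groups as well. On summed counts 13 genes were higher and 9 lower, after quantile normalization 8 and 23, and scaled without the 20 most abundant genes 6 and 29. In that order 11, 24 and 20 of these genes were among the 25. Scgb3a1 is among the 20 most abundant genes and was not tested in the last setting. Every one of the 25 genes had 4 CS mice on one side of the 4 RA mice. Of all genes tested, 524 (4.46%) had the CS mice above and 240 (2.04%) had them below. The sign of such a gene cannot reverse when 1 mouse is left out, so those 8 fits do not test it. Only 1 of the 25 genes passed in all 8. Of the 25, 4 met the 10% for detection only in the group where they were higher (Reg3g, Actn2 and Gm7899 in RA mice, Sncg in CS mice), so their selection favoured a difference. With the lane as a block, which pairs 1 CS with 1 RA mouse, 17 genes passed, 16 of them among the 25. The 9 that no longer passed were St13 (limma adjusted p = 0.0783), Qsox1 and 9530026P05Rik (each 0.0792), Ppargc1a (0.0712), Pkhd1 (0.0629), Ccdc148 (0.0987), Hspb8 (0.0912), Gm7899 (0.0934) and Actn2 (0.109).

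**Figure D3:**
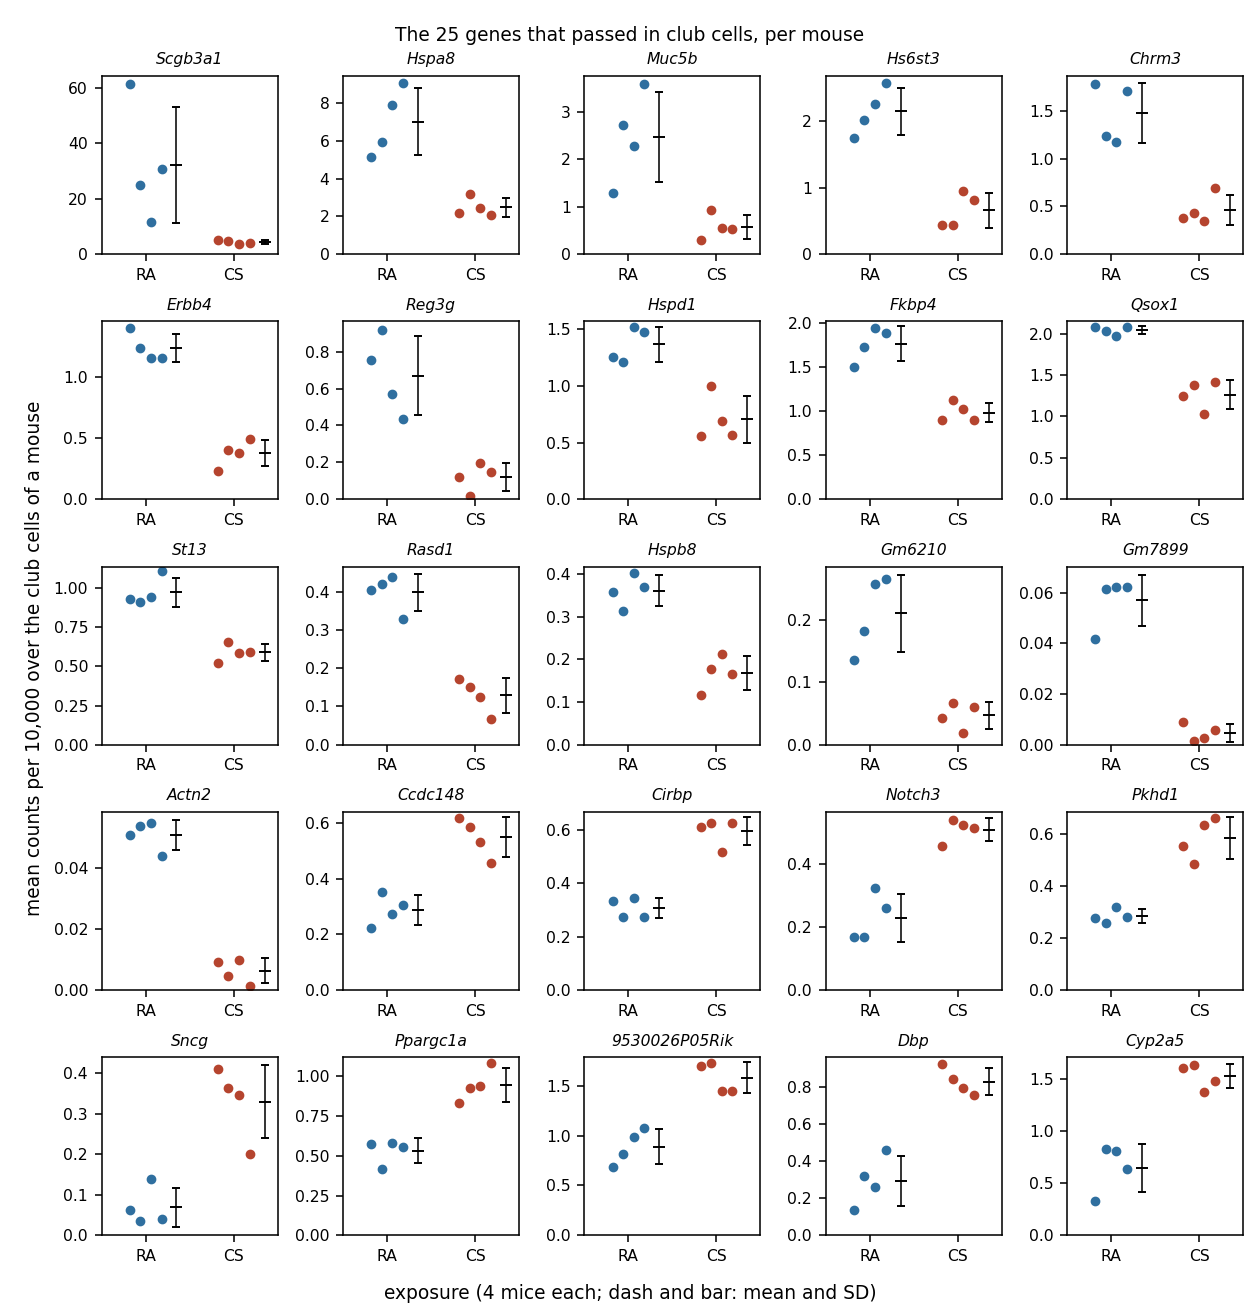
The 25 genes that passed, with 1 point per mouse (blue RA, red CS; mean counts per 10,000 over its club cells) and the mean and SD of 4 mice beside the points. The groups do not overlap in any panel, and RA mice spread widely for Scgb3a1, from 11.6 to 61.4.

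Among 19 secretory products tested, 3 fell in CS mice, beside 0.136% of all genes, and none rose. This list, like those below, was chosen with earlier results of these data known, so its counts carry no test. Without Reg3g, which met the 10% for detection only where it was higher, 2 fell. Of the list 15 had a lower mean log2 value, whereas 59.2% of all genes had a higher one, and the list's median log2 difference was -0.22 beside 0.01 over all genes. Scgb3a1, a secretoglobin of larger airways (chr11:49663610-49665118 on GRCm38), stood at 5.04, 4.82, 3.70 and 4.01 per 10,000 in the CS mice C2, C5, D2 and D5, and at 61.4, 25, 11.6 and 30.7 in the RA mice F1, F3, M1 and M3. All CS mice were low and close together, and the RA mice spread over a wide range above them. Scgb3a1 fell to 0.137 of the RA mean, with 4.39 ± 0.637 against 32.2 ± 21.1 (SD, n = 4). The log2 difference was -2.40 (standard error 0.366, limma adjusted p = 0.0276). It passed in 2 of the 8 fits with a mouse left out.

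Muc5b, the gel-forming mucin of airway mucus (chr7:141839070-141873084), stood at 0.288, 0.923, 0.552 and 0.526 in CS mice and at 1.29, 2.72, 2.28 and 3.60 in RA mice. It fell by 1.11 on the log2 scale (standard error 0.180, limma adjusted p = 0.0329), and no CS mouse reached the lowest RA mouse. Reg3g, an antibacterial lectin (chr6:78466269-78468872), stood at 0.121, 0.0171, 0.199 and 0.148 in CS mice and at 0.757, 0.919, 0.572 and 0.433 in RA mice. It fell to 0.181 of the RA mean (log2 difference -0.57, standard error 0.0809, limma adjusted p = 0.0225), having met the 10% for detection in RA mice only (17.6% against 8.05% of cells). The other secretory products did not pass. Scgb1a1 itself had a log2 difference of -0.03 (adjusted p = 0.898) and Scgb3a2 one of -0.16 (adjusted p = 0.806), and the trefoil peptide Tff2 one of -0.88 (adjusted p = 0.243).

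Scgb3a1, Muc5b and Reg3g are also goblet cell markers, and the summed level of 9 goblet markers, which includes them, ran from 6.04 to 7.88 per 10,000 in club cells of CS mice and from 16.2 to 65.6 in those of RA mice. Scgb3a1 alone made up 65.6% of the mean sum in CS mice and 84.5% in RA mice. Of the 9 goblet markers, only 2 had a higher mean in CS mice than in RA mice. Bpifb1 and Agr2 had log2 differences of 0.13 and 0.01 (limma adjusted p = 0.817 and 0.901), and Tff2 one of -0.88 (adjusted p = 0.243). A Scgb3a1 count was found in 14.8% to 19.4% of the club cells of a CS mouse and in 19.9% to 41.0% of those of an RA mouse, at club cell medians of 27543 to 51739 UMIs. It was also found in 11.1% to 15.3% of B cells in CS mice and 4.87% to 15.3% in RA mice, at a median of 4055 UMIs. These shares are at unlike depth. As means over all mice, Scgb3a1 stood at 0.355 per 10,000 in B cells and 0.525 in ciliated cells. How much of the Scgb3a1 in club cells is free RNA was not tested. Thinned to 2000 UMIs, 10.6% of smoke-exposed and 21.4% of room air club cells had a Scgb3a1 count, as means over mice. Within cells labelled goblet, Scgb3a1 had a log2 difference of -0.45 (adjusted p = 0.404), Muc5b one of 0.16 and Reg3g one of -0.76 (adjusted p = 0.317). Reg3g ran from 16.8 to 33.5 per 10,000 in goblet cells of CS mice and from 33.6 to 71.6 in those of RA mice. Lypd2 ran from 8.21 to 12.6 and from 14.4 to 18.2, and neither gene overlapped. The share of all genes without overlap in goblet cells is not given here. The difference between club and goblet cells in this response was tested in the same way and no gene passed limma, with 707 at an unadjusted p under 0.05. Whether some cells labelled club in RA mice are goblet cells was not tested.

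A further 6 genes that fell are given together here without a common function, being Erbb4, Hs6st3, Chrm3, Rasd1, Qsox1 and Actn2. Erbb4, a receptor tyrosine kinase for neuregulins (chr1:68032186-69108059), stood at 0.233, 0.404, 0.380 and 0.491 in CS mice and at 1.40, 1.24, 1.16 and 1.16 in RA mice. The gap between the groups was wider than the range within either. It fell to 0.304 of the RA mean (log2 difference -0.70, standard error 0.0648, limma adjusted p = 0.00162), and Erbb4 was the only gene that passed in all 8 fits with a mouse left out. An Erbb4 count was found in 24.8% to 34.7% of the club cells of a CS mouse and in 49.8% to 64.0% of those of an RA mouse. In B cells the means were 2.54% and 2.02%, but at unlike depth (median 4055 UMIs against 32786 in club cells). Thinned to 2000 UMIs, Erbb4 was found in 2.41% to 6.70% of club cells in CS mice and 14.9% to 19.2% in RA mice.

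Hs6st3, which adds sulfate to heparan sulfate chains (chr14:119138341-119869815), stood at 0.434, 0.441, 0.947 and 0.810 in CS mice and at 1.75, 2.02, 2.26 and 2.57 in RA mice. It fell to 0.306 of the RA mean (log2 difference -0.93, standard error 0.113, limma adjusted p = 0.0153). Chrm3, the M3 muscarinic acetylcholine receptor (chr13:9875486-10360847), stood at 0.378, 0.435, 0.349 and 0.693 in CS mice and at 1.78, 1.23, 1.18 and 1.71 in RA mice. It fell to 0.314 of the RA mean (log2 difference -0.76, standard error 0.0959, adjusted p = 0.0153), and Hs6st3 and Chrm3 each passed in 7 of the 8 fits with a mouse left out. Rasd1, a Ras-like protein induced by dexamethasone, fell from 0.399 to 0.128 (log2 difference -0.31, adjusted p = 0.0153). Qsox1, a secreted thiol oxidase, fell from 2.04 to 1.26 (log2 difference -0.43, adjusted p = 0.0493) and passed in 0 of these 8 fits. The low gene Actn2, an actinin of muscle, fell from 0.0509 to 0.00633 (adjusted p = 0.0467), with a count in 10.8% of club cells in RA and 2.34% in CS mice.

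The next list holds molecular chaperones, which help proteins fold. The list of 17 cytosolic chaperone and cold-inducible genes also holds the mitochondrial chaperonin genes Hspd1 and Hspe1. Of the 17, 2 fell, being Hspa8 and Hspd1 (beside 0.136% of all genes), and 1 rose (beside 0.0767%). In the lower direction 11 had an unadjusted p under 0.05 beside 3.19% of all genes. The median log2 difference was -0.33, and -0.19 in club cells of cluster 12. Since the list was chosen with earlier results of these data known, these counts describe it and carry no test. Hspa8, the constitutive heat shock cognate 70 (chr9:40800984-40810087), stood at 2.18, 3.18, 2.46 and 2.08 in CS mice and at 5.17, 5.95, 7.89 and 9.08 in RA mice. It fell to 0.352 of the RA mean, 2.47 ± 0.496 against 7.02 ± 1.79 (log2 difference -1.19, standard error 0.168, limma adjusted p = 0.0225). All CS mice lay below all RA mice, and the RA mice varied more.

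The mitochondrial chaperonin Hspd1 (Hsp60) fell from 1.36 ± 0.152 to 0.704 ± 0.204 (log2 difference -0.48, adjusted p = 0.0482), and its partner Hspe1 (Hsp10) had a log2 difference of -0.56 (adjusted p = 0.0804) and did not pass. Fkbp4, an immunophilin that works with Hsp90, fell from 1.76 ± 0.198 to 0.982 ± 0.112 (log2 difference -0.48, adjusted p = 0.0308). St13, which binds Hsp70, fell from 0.974 to 0.591 (adjusted p = 0.0434), and the small heat shock protein Hspb8 from 0.361 to 0.168 (adjusted p = 0.0434). Fkbp4, St13 and Hspb8 stand outside the list of 17 and were grouped here after their values were seen. The large chaperones Hsp90aa1 and Hsp90ab1 had log2 differences of -1.0 and -0.82, and Hspb1 one of -1.14, each with an adjusted p of 0.10. Gm6210 and Gm7899, both annotated as processed pseudogenes, also fell. Of their 31-base words 61.8% and 18.7% also occur in Hspa8, so their counts cannot be told apart from Hspa8 reads with certainty.

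Chaperones of the endoplasmic reticulum, which fold secreted proteins, were taken as a list of their own, also chosen with earlier results known. Of 19 tested, none passed, 17 had a lower mean, and the median log2 difference was -0.14. In the lower direction 9 had an unadjusted p under 0.05, beside 3.19% of all genes. In cluster 12 alone 17 were lower as well, with a median of -0.09. Calr (calreticulin) had a log2 difference of -0.32 (adjusted p = 0.204) and Creld2 one of -0.19 (adjusted p = 0.159). The median mitochondrial percent of club cells, a sign of RNA quality, ran from 1.59% to 2.22% with smoke and from 1.31% to 2.04% without, which overlap.

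Promoters are shown for 3 of the chaperone genes with a match, since heat shock factors bind repeats of GAA and TTC. The letters GAANNTTC or TTCNNGAA, each its own reverse complement so that both strands are covered and which can overlap each other, were searched from 250 bases before to 50 bases after each gene's start in RefSeq (GRCm38.p6). Of the 17 chaperone and cold-inducible genes 13 had an entry, and 8 of these (61.5%) held a match, beside 17.0% of all 27025 genes with an entry. Of the 25 genes that passed, 19 had an entry and 6 (31.6%) held a match, being Hspd1, Fkbp4, Hspb8, Scgb3a1 and Reg3g, which fell, and Pkhd1, which rose. Hspa1a and Hspa1b, inducible Hsp70 genes, also held a match, with log2 differences of -0.06 and -0.05 (limma adjusted p = 0.969 and 0.976). Hspa8 and Scgb1a1 had no entry in the set of starts used here. Capitals mark the matches, written 5′ to 3′ on the strand of the gene, which is the minus strand in all 3. The windows lie at chr1:55087883-55088182 for Hspd1, with 3 overlapping matches (a second RefSeq start of this gene has none), at chr6:128438607-128438906 for Fkbp4 and at chr5:116422815-116423114 for Hspb8. A match of these letters is a description of the sequence, and no binding was measured.
Hspd1: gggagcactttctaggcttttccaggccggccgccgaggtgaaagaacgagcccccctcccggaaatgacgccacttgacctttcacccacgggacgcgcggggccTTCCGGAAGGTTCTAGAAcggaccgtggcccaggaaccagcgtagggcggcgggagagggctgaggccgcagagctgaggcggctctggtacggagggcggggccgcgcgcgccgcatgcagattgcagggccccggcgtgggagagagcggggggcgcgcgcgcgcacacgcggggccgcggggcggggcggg
Fkbp4: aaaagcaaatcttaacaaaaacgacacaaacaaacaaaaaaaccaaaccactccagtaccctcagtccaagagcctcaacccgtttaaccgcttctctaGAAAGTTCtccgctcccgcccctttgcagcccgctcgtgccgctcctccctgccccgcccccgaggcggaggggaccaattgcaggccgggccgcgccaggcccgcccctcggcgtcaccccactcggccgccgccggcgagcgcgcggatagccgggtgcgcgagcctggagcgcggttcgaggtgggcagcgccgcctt
Hspb8: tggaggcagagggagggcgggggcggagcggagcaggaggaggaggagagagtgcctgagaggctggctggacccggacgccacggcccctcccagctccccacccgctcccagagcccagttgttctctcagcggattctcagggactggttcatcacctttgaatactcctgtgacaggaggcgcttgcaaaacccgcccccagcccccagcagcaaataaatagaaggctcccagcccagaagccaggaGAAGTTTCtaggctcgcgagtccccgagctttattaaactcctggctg

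The clock gene Dbp and the cold-inducible gene Cirbp rose in CS mice. Dbp, a transcription factor that the circadian clock drives (chr7:45705088-45710203), stood at 0.919, 0.843, 0.790 and 0.758 in CS mice and at 0.135, 0.317, 0.258 and 0.457 in RA mice. It rose to 2.84 times the RA mean (log2 difference 0.51, standard error 0.0678, limma adjusted p = 0.0173). Of the 9 clock output genes tested, Dbp alone passed (beside 0.0767% of all genes called higher). In the higher direction 6 had an unadjusted p under 0.05 beside 7.07% of all genes, and the median log2 difference was 0.14. The clock lists, too, were chosen with earlier results of these data known, so these counts carry no test. Per2, a clock repressor, had a log2 difference of 0.26 (adjusted p = 0.201), and Arntl, which peaks in the opposite phase, one of -0.23 (adjusted p = 0.0804). Of 6 genes of that opposite phase none passed, and their median was -0.08. Cirbp, an RNA-binding protein induced by mild cold (chr10:80165985-80172786), stood at 0.612, 0.627, 0.518 and 0.626 in CS mice and at 0.333, 0.274, 0.343 and 0.273 in RA mice. It rose to 1.95 times the RA mean (log2 difference 0.29, standard error 0.0419, adjusted p = 0.0235). Rbm3, the other cold-inducible gene of the list, had a log2 difference of 0.00869 (adjusted p = 0.922).

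Notch3, a Notch receptor of airway progenitors, rose from 0.230 to 0.509 (log2 difference 0.30, adjusted p = 0.0318), and was the one gene of 19 airway transcription factor and Notch genes to pass, beside 0.213% of all genes. Pkhd1, which encodes fibrocystin, a protein of primary cilia, rose from 0.285 to 0.585 (log2 difference 0.30, adjusted p = 0.0262). The long noncoding RNA 9530026P05Rik, annotated as antisense, rose from 0.890 to 1.58 (adjusted p = 0.0476). Whether counting used strand for it is not given in the sources used here.

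For 4 of the 9 genes that rose, the difference lay above 0 in cluster 19 and near or below 0 in cluster 12. Cyp2a5, a cytochrome P450 that metabolizes nicotine and coumarin (chr7:26835305-26843548), stood at 1.61, 1.63, 1.38 and 1.48 in CS mice and at 0.328, 0.828, 0.805 and 0.637 in RA mice (ratio 2.35, log2 difference 0.62, standard error 0.0938, limma adjusted p = 0.0265). It was the one gene of 22 phase I and carbonyl enzymes to pass, beside 0.213% of all genes. In cluster 12 its log2 difference was -0.09 and in cluster 19 it was 0.90, and cluster 19 cells held 2.92 to 3.56 per 10,000 in CS mice against 0.60 to 1.6 in RA mice. Goblet cells held 3.02 to 5.61 in CS and 3.30 to 7.43 in RA mice, which overlap. A Cyp2a5 count was also found in 1.18% to 2.83% of B cells in CS mice and 0% to 1.15% in RA mice, without overlap. Of the 31-base words of Cyp2a5 48.2% also occur in Cyp2a4, so the split between these genes is uncertain.

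Sncg, a synuclein, rose from 0.0689 to 0.330 (adjusted p = 0.0308), Ppargc1a, a coactivator of mitochondrial biogenesis, from 0.532 to 0.947 (adjusted p = 0.0418), and Ccdc148 from 0.287 to 0.549 (adjusted p = 0.0482). Their log2 differences were -0.01, -0.01 and 0.05 in cluster 12 and 0.53, 0.49 and 0.36 in cluster 19. In cells labelled ciliated, these 3 genes had log2 differences of 0.92, 0.69 and 0.34. The summed level of ciliated markers in club cells ran from 15.5 to 19.1 with smoke and from 11.4 to 15.5 without, with no overlap before rounding, and its part in these differences was not tested. Within cluster 12 that sum ran from 0.35 to 0.81 and from 0.28 to 0.65, which overlap. The difference between the clusters was not itself tested.

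The other genes that passed had the same sign in both clusters, although no gene passed limma in either alone (904 at an unadjusted p under 0.05 in cluster 12 and 882 in cluster 19). Scgb3a1 had a log2 difference of -2.44 in cluster 12 and -2.07 in cluster 19, Hspa8 -0.96 and -1.42, Hs6st3 -1.23 and -0.45, and Dbp 0.53 and 0.43. Scaled without Scgb1a1, cluster 12 gave 28 genes of 11736 (0.239%), 8 higher and 20 lower, of which 16 were among the 25. In that setting Scgb3a1 (adjusted p = 0.0203), Hspa8 (0.0192), Erbb4, Hs6st3, Chrm3, Dbp and Pkhd1 (each 0.00952) passed, and Notch3 (0.0607), Qsox1 (0.123) and St13 (0.154) did not. Choosing cells by cluster and this scaling were both decided after seeing the data.

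**Figure D4:**
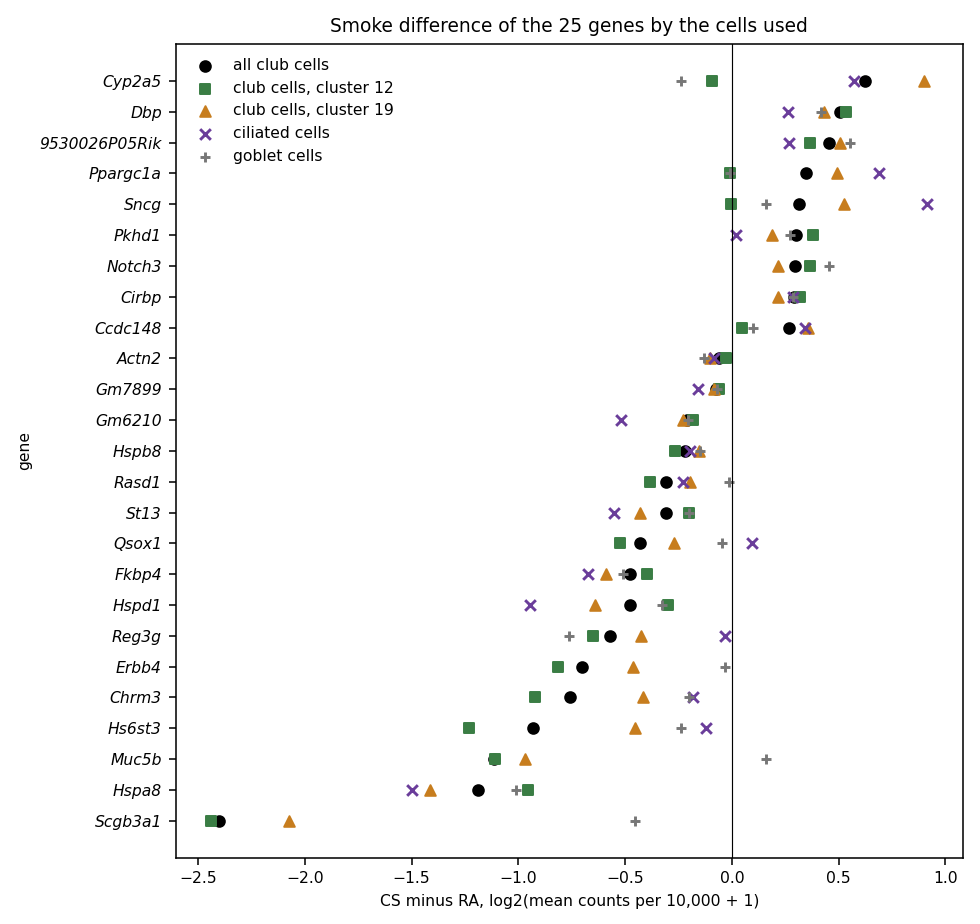
Smoke difference (horizontal axis, CS minus RA on the log2 scale) of the 25 genes (vertical axis) in all club cells, in club cells of cluster 12 or 19, in ciliated cells and in goblet cells, where a gene was tested there. Cyp2a5, Ppargc1a, Sncg and Ccdc148 lie to the right of 0 in cluster 19 but near 0 or below in cluster 12, while the chaperones lie left of 0 in every kind of cell shown.

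In the other lists no single gene passed in all club cells, beside 0.213% of all genes. At that share lists of 6 to 48 genes would seldom hold one, so these counts do not show that a program did not respond. Of 9 genes of the aryl hydrocarbon receptor, which smoke constituents are known to activate, 6 were tested, among them the receptor Ahr and its partner Arnt, and none passed (median log2 difference 0.06). Its classic target Cyp1a1, Ahrr and Ugt1a6a were not tested. Among 23 glutathione genes and 19 genes of the NRF2 and antioxidant list, which includes NRF2 itself (Nfe2l2) and its inhibitor Keap1, none passed, with medians of 0.02 and 0.03. Nqo1, a quinone reductase, had a log2 difference of 0.14 (adjusted p = 0.406), Gpx1, a glutathione peroxidase, 0.24 (adjusted p = 0.253), and Prdx6, a peroxiredoxin, -0.43 (adjusted p = 0.379). Antigen presentation (15 genes, median 0.07), interferon response (13 genes, 0.04), chemokines and cytokines (10 tested of 21, 0.03), immediate-early genes (19, -0.11), glucocorticoid targets (11, 0.00), ion transport (14, -0.07), metallothionein and iron genes (13, -0.02), eicosanoid genes (11, 0.01), oxidative phosphorylation (48, 0.04) and senescence genes (12, 0.03) had none that passed. Of the antigen presentation genes 13 of 15 had a higher mean in CS mice, beside 59.2% of all genes, and 15 of 15 in cluster 12, beside 50.9%. Cd74, the invariant chain of MHC class II, had a log2 difference of 0.28 (adjusted p = 0.662) and passed in cluster 12 scaled without Scgb1a1 (1.03, limma adjusted p = 0.0448). A Cd74 count was found in 25% to 47.3% of the club cells of a CS mouse and 13.2% to 20% of those of an RA mouse, and at 2000 UMIs in 3.61% to 19.4% and 2.63% to 5.24%, which overlap. Of the club cell markers, Cyp2f2 had a log2 difference of 0.09 (adjusted p = 0.845), Cbr2 0.07 (0.880), Hp -0.17 (0.739), Aldh1a1 0.13 (0.886), Cldn10 -0.14 (0.727) and Ces1d 0.03 (0.956). Lypd2 had -0.70 (0.102) and Chad -0.24 (0.0725), and in both every CS mouse lay below every RA mouse, beside 2.04% of all genes tested. In the other 8 club cell markers the groups overlapped.

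**Figure D5:**
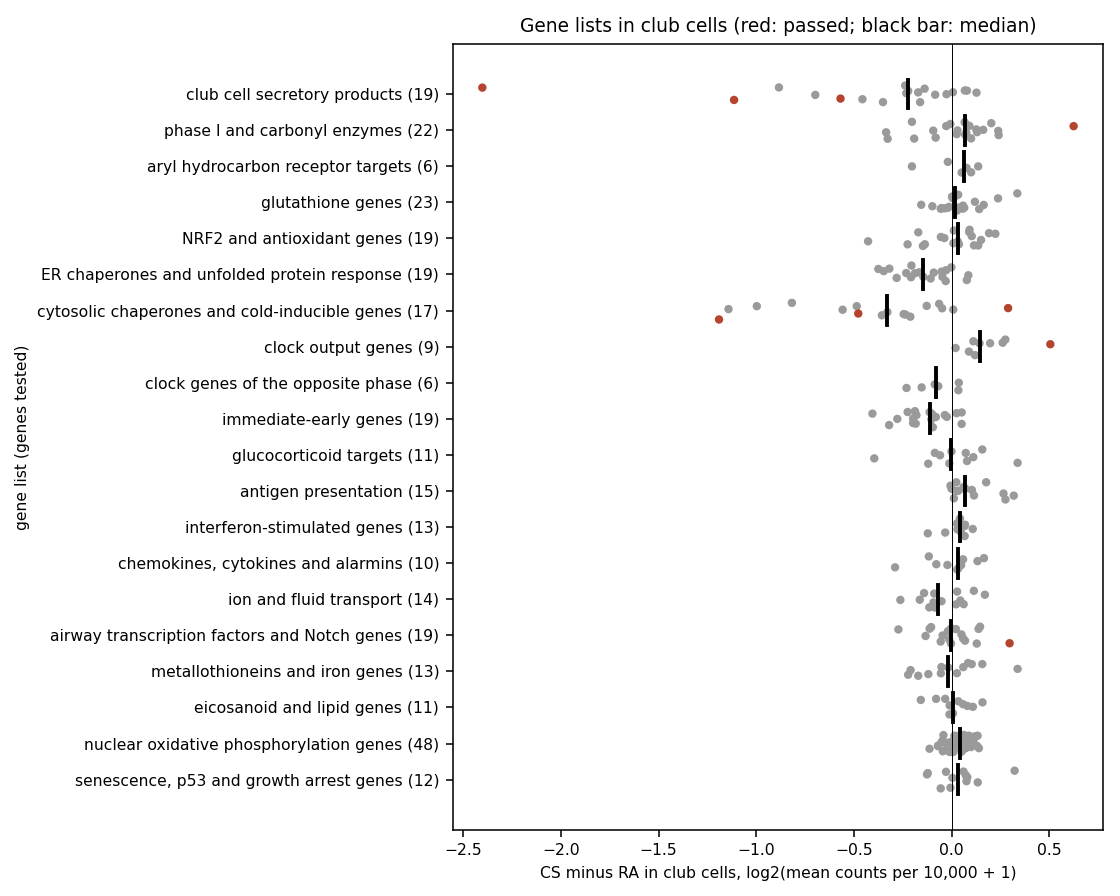
Each row is a gene list with the number of genes tested, each point a gene and the black bar the list's median difference between CS and RA club cells on the log2 scale, with genes that passed in red. The list of cytosolic chaperones and cold-inducible genes (median -0.33), which also holds mitochondrial Hspd1 and Hspe1, and that of secretory products (median -0.22) lie lowest. Clock output genes (0.14) lie highest.

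The response was set beside that of ciliated cells from the same 8 mice, in which 519 of 11147 genes passed (4.66%). There 21 of the 25 club cell genes were tested. Ciliated cells numbered 3519 and club cells 1389, so the counts of genes that passed are at unlike precision. The same test gave 0 of 9138 genes in 1881 AT2 cells (670 at an unadjusted p under 0.05) and 21 of 11946 in 509 goblet cells. Hspa8 had a log2 difference of -1.50 in ciliated cells (adjusted p = 0.005), Hspd1 -0.95 (0.010), Fkbp4 -0.67 (0.004) and Cirbp 0.29 (0.004). The test of the difference between the types, made on the per-mouse difference of log2 values, gave 15 genes (0.128%). Erbb4 was lower in club cells relative to ciliated cells by a log2 difference of -0.69 (adjusted p = 0.00583), Hs6st3 by -0.81 (0.00583) and Qsox1 by -0.53 (0.0025). Hspa5, the main chaperone of the endoplasmic reticulum, differed by 0.60 (0.0103), with -0.35 in club and -0.95 in ciliated cells. In club cells of cluster 12 alone, Hspa5 had a log2 difference of -0.11. Cp (ceruloplasmin, a copper oxidase) differed by -1.20 (0.00583), with -0.21 in club and 0.99 in ciliated cells. The remaining 10 are given among the closing values.

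Against AT2 cells, the alveolar secretory cells, 5 genes passed (0.0426%). Erbb4 differed by -0.69 (limma adjusted p = 0.0151), Il13ra1, a receptor chain for interleukin 13, by -0.27 (0.0269), the peroxiredoxin Prdx1 by -0.34 (0.0151), Ppargc1a by 0.40 (0.04) and Slc35f3, a solute carrier, by 0.24 (0.04). Without C2 or without D5 this count was 1, and without D2, F1, F3, M1 or M3 it was 0, with 690 to 876 genes at an unadjusted p under 0.05. Erbb4 was found in 6.91% (CS) and 8.17% (RA) of ciliated cells (0.0338 and 0.0445 per 10,000) and in 2.48% and 2.59% of AT2 cells (0.0188 and 0.0253), under the 10% set for testing in those types. Its difference from either type therefore restates the club cell value, while the other genes were tested in both types compared.

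The lineage reporter was read in the same cells. eGFP stood at 1.70, 2.30, 1.46 and 2.06 per 10,000 in club cells of C2, C5, D2 and D5 and at 0.724, 1.18, 1.89 and 1.26 in those of F1, F3, M1 and M3. CS mice were higher in 4 of 4 lanes, but M1 lay among them, and 1.88 ± 0.373 against 1.26 ± 0.480 did not pass (SD, n = 4; exact permutation p = 0.0857, adjusted p = 0.514). In AT2 cells, where Sftpc-driven Cre acts, eGFP was at 67.5 and 74.9, and in B cells at 0.529 and 0.365. Ciliated cells stood at 2.09 and 1.38 (exact permutation p = 0.0286, unadjusted and the smallest possible), a level like that of club cells. Thinned to 2000 UMIs, 26.4% of smoke-exposed and 16.4% of room air club cells held eGFP (exact permutation p = 0.114), beside 8.15% and 7.35% of B cells. Neither B cells nor endothelial cells are known to use Sftpc, yet at the same depth 51.9% to 63.0% of the cells that the authors labelled EC_capillary_B held eGFP in the 8 mice, above the 9.64% to 30.1% of club cells. Basal cells, of which each mouse gave 10 to 37, ranged from 0% to 48.5%. At that depth the club cell range lies within that of basal cells and below that of EC_capillary_B cells. The latter also held tdTomato in 19.5% to 52.1% of cells. Whether eGFP in club cells marks descent from Sftpc-expressing cells was not tested. In club cells the red reporter tdTomato stood at 0.536 and 0.634 (exact permutation p = 0.600).

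Sftpc itself, the surfactant gene of AT2 cells, had a count in 93 club cells (6.70%), 32 from CS and 61 from RA mice, and in 0.901% to 14.4% of the club cells of a mouse. In these cells Sftpc had a mean of 84.2 per 10,000 and a median of 31.5, eGFP a mean of 3.94 against 1.41 in the other club cells though a count in 61.3% against 60.4% of them, and the surfactant gene Sftpa1 49.4 against 18.7. Scgb1a1 stayed high in them, at 3760 against 4037. Their median depth was 20634 UMIs against 33658. In cluster 19 the 44 such cells had a median of 1425 UMIs against 44354 in the other cells, near the minimum of 1000 transcripts for a cell, and 50% of them held eGFP against 67.5% of the others. As a level that free RNA can leave, 3.94% of B cells held an Sftpc count, at a lower median depth of 4055 UMIs. How much of the Sftpc in club cells is free RNA was not tested.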

How the data were processed

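Lungs of 8 mice were measured by 10x single-cell RNA sequencing (4 CS, 4 RA, as labelled). Alignment by the authors used STAR 2.7.3a against GRCm38.p6 with GENCODE M22 plus eGFP and tdTomato. They counted spliced and unspliced UMIs, removed cells under 1000 transcripts or over 5% mitochondrial counts, and removed free RNA with SoupX 1.2.2. They clustered the cells and named the types. The deposited values are estimated counts after that removal, with 1.28% of them whole (within 1e-06) and no scaling, so no count model was used. By the authors' own mitochondrial percent of each cell, 99 club cells exceed 5%. Cells labelled Club were kept, counts were scaled to 10000 per cell and averaged per mouse, and genes found in at least 10% of club cells of either group were tested with limma 3.58.1 (R 4.3.3, trend) on log2(mean + 1), a scale that understates changes of low genes. The threshold was 0.05 after Benjamini-Hochberg adjustment. Shares and reporter levels were tested by exact permutation, two-sided (Python 3.11.15, numpy 2.4.6, scipy 1.17.1, pandas 2.3.3, matplotlib 3.10.9). The authors' own test compared cells; mice are the units here. In data simulated from these club cells, 94 of 100 genes shifted by 1 and 99 of 100 shifted by 2 on the log2(mean + 1) scale were recovered, with 10 false calls over 11736 genes. The shifted genes had means over 1 per 10,000, and smaller shifts, such as most of those reported, were not simulated. Named genes were the 10 largest changes each way that passed without overlap, club markers, the leading members of each list, and the highest and most specific genes; others are named where a result turns on them. The cells, lists and tests were chosen with earlier results of these data known. Intervals of error are SDs over mice and hold both sampling and animal differences. Depth per club cell differs up to 51739 against 27543 UMIs in the median, so thinning to 2000 UMIs was an alternative. Other alternatives changed the pseudocount, gene filter, scaling and cells, added the labelled sex as a term or the lane as a block, and left out each mouse.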

Additional observations from a re-analysis of the deposited data

Results flagged for a closer look

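In 10 of 156 groups of 4 mice, 1 mouse lay far from the other 3 by Dixon's criterion, which chance does in about 1 group in 20. In RA mice these were Ppargc1a in F3 (0.415 per 10,000, others 0.554 to 0.581), Gm7899 in F1 (0.0419, others 0.0615 to 0.0624), Cmss1 in F1 (16.7, others 3.81 to 4.63), Gpx2 in M1 (1.84, others 1.04 to 1.13), Fmn2 in F3 (0.392, others 0.0976 to 0.136), Il13ra1 in F1 (0.635, others 0.695 to 0.707), Per2 in M3 (0.771, others 0.497 to 0.534) and the median UMIs per club cell in M3 (51739). In CS mice they were Cirbp in D2 (0.518, others 0.612 to 0.627) and Slc35f3 in C2 (0.978, others 0.769 to 0.799).

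The smoke difference in club cells differed from that in ciliated cells for 15 genes by limma on the per-mouse difference. It was lower in club cells for Cp (-1.20), Hs6st3 (-0.81), Erbb4 (-0.69), Parm1 (-0.68), Ctnna3 (-0.56), Qsox1 (-0.53), Gpx2 (-0.49), A330076H08Rik (-0.38), Acyp2 (-0.37), Enpp2 (-0.36) and Agr2 (-0.19). It was higher for Hspa5 (0.60), Hspa2 (0.53), Gm29216 (0.36) and Fmn2 (0.20). Against AT2 cells it was lower for Erbb4 (-0.69, found in under 10% of cells of both other types), Prdx1 (-0.34) and Il13ra1 (-0.27) and higher for Ppargc1a (0.40) and Slc35f3 (0.24). Gpx2, Fmn2, Il13ra1, Ppargc1a and Slc35f3 are in both groups of values, so a single mouse lies apart in genes for which the types differ.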

How the results depend on the processing

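Pairing the CS and RA mouse of each of the 4 lanes with a lane block gave 17 genes, of which 16 were among the 25. Against 25 genes, limma with no gene filter called 0 (1830 at an unadjusted p under 0.05). Cells without other lineage markers gave 3 (2 among the 25), and cells thinned to 2000 UMIs 11 (9 among the 25). Settings chosen after seeing the data called 0 in cluster 12 (904 at an unadjusted p under 0.05), 0 in cluster 19 (882) and 0 in cells with no ciliated marker (643), and 28 in cluster 12 scaled without Scgb1a1. With 1 mouse left out the count ran from 1 to 21. Pseudocount 0.1 gave 32 genes (25 of them among the 25), the 25% filter 26 (22) and summed counts 22 (11). Quantile normalization gave 31 (24), removal of the 20 top genes 35 (20) and the labelled sex as a term 20 (19). Scgb3a1 is among the 20 top genes, so it was not tested once they were removed. The sex labels of the CS mice go against their transcripts, so that term does not adjust for sex. Of 546 values for the 25 genes over 22 settings, 224 still passed, 313 kept their direction without passing and 9 reversed. In the settings that left out 1 mouse the direction could not reverse, because the groups did not overlap. The reversals were in cluster 12, in cells with no ciliated marker, and in cluster 12 without Scgb1a1, for Cyp2a5 (-0.0908, -0.147 and -0.103), Ppargc1a (-0.00853, -0.0525 and -0.0156) and Sncg (-0.00547, -0.00375 and -0.00531), and the cause was not tested. The count of genes that differ from ciliated cells was 43 with pseudocount 0.1, 126 on summed counts and 8 to 38 with 1 mouse left out. For AT2 cells it was 0 with pseudocount 0.1 (713 at an unadjusted p under 0.05), 3 on summed counts and 0 to 5 with 1 mouse left out. The difference in club share of epithelial cells, -1.99 percentage points, ran from -4.69 to -0.447 and the eGFP difference of 0.617 from 0.437 to 0.826 with 1 mouse left out. Only 84 club cells came from C2, which limits low genes there.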
